A study of Rattus norvegicus with 24 samples.

Results

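The second week after a compression injury of the rat spinal cord was followed by setting 4 arrays from day 14 against 4 arrays from day 7. A gene was included when its group mean reached 5 on the log2 signal scale on at least 1 of these days. That left 8729 of the 14218 genes with a single symbol on the Affymetrix rat expression array. Of these, 8507 reached 5 on both days, 115 on day 7 only and 107 on day 14 only. Every rat was a female Wistar with a laminectomy. The injured rats had an aneurysm clip of 35 g closed on the cord at T7 for 1 min, and 1 array holds the RNA of the 5 mm of cord around the injury of 1 rat. Levels in 4 sham-operated rats and in the injured groups of days 1, 3 and 56, also of 4 rats each, are given as a reference. The tissue is whole cord, so fewer cells of a type and less RNA per cell cannot be told apart in any value below.

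By the end of the first week blood-borne macrophages and activated microglia fill a compression lesion, and many cells around it divide. In the following week the borders of the lesion mature, a fibrous matrix and an astrocyte border form, and precursor cells produce new oligodendrocytes. The comparison asks which transcripts of the injured cord still differ between these stages.

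Of 20 genes of DNA replication and mitosis 8 were lower on day 14, as were single genes of macrophages, of scar-forming cells, of newly formed oligodendrocytes and of iron uptake. Among glycolytic genes 8 of 21 and among respiratory chain subunits 12 of 22 were lower, by small amounts. The higher genes included Igf2, the interferon-induced Oasl, the smooth muscle myosin Myh11 and the secreted factor Ecrg4. In the limma fit 1030 of the 8729 genes (11.8%) had an adjusted p under 0.05, 854 of them lower (9.78%) and 176 higher (2.02%) on day 14. With a change of at least 1 on the log2 scale, a 2-fold difference, 73 were lower (0.836%) and 31 higher (0.355%). Most called changes were small: 926 of the 1030 were under 1, and their median size was 0.44.

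Those counts rest on how dim probe sets and scaling were handled. Over all 14218 genes 28% were called, because 2951 of the 5489 genes below 5 on both days were called, 99.2% of them higher on day 14. With dim probe sets left out before the fit, 78 of the 8729 genes (0.894%) had an adjusted p under 0.05, 62 lower and 16 higher. Of the 31 higher and 73 lower genes above, 8 and 19 were called in that fit as well. With quantile normalization 94 were called. Of the called genes 17.1% were higher on day 14, against 44.7% with quantile normalization and 4.31% with the arrays centred on their medians. The median change over the 8729 genes was -0.12 and that over all genes was 0.03, so each change below is to be read against -0.12. Each time point was pre-processed on its own according to the methods, and its part in this shift cannot be told apart from that of the day.

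The arrays of a group were not alike. Along the first principal component of the 8 arrays, which held 50.2% of their variance, day 7 replicate 2 and day 14 replicate 3 lay at one end and day 7 replicate 3 at the other. Neuronal genes were high in day 7 replicate 3 and low in day 14 replicate 3, and genes of macrophages and matrix ran the other way. Without these 3 arrays 170 genes were called, 17 of them higher and 53 lower by at least 1. They were picked from these same values, and day 7 replicates 1 and 4 then stand against day 14 replicates 1, 2 and 4. Changes of neuronal, macrophage, matrix and interferon-stimulated genes without them follow in part from that choice. Without day 7 replicate 3 alone 1708 were called, and without day 7 replicate 1, day 7 replicate 2, day 14 replicate 1 or day 14 replicate 2 the calls were 620, 613, 621 and 596. The tryptophan operon spike-in probe sets, which follow background, read 2.77 to 2.84 on day 7 and 2.93 to 3.06 on day 14. The tissue had the markers of its label: Gfap of astrocytes was at 14.62 ± 0.29 (SD, n = 4) on day 7, Mbp of oligodendrocytes at 15.13 ± 0.15 and Snap25 of neurons at 12.03 ± 1.04. B cell markers (Cd79b, Ms4a1) stayed below 5, and of the measured neutrophil markers S100a9 reached it, on day 14 alone, and S100a8 did not.

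**Figure D1:**
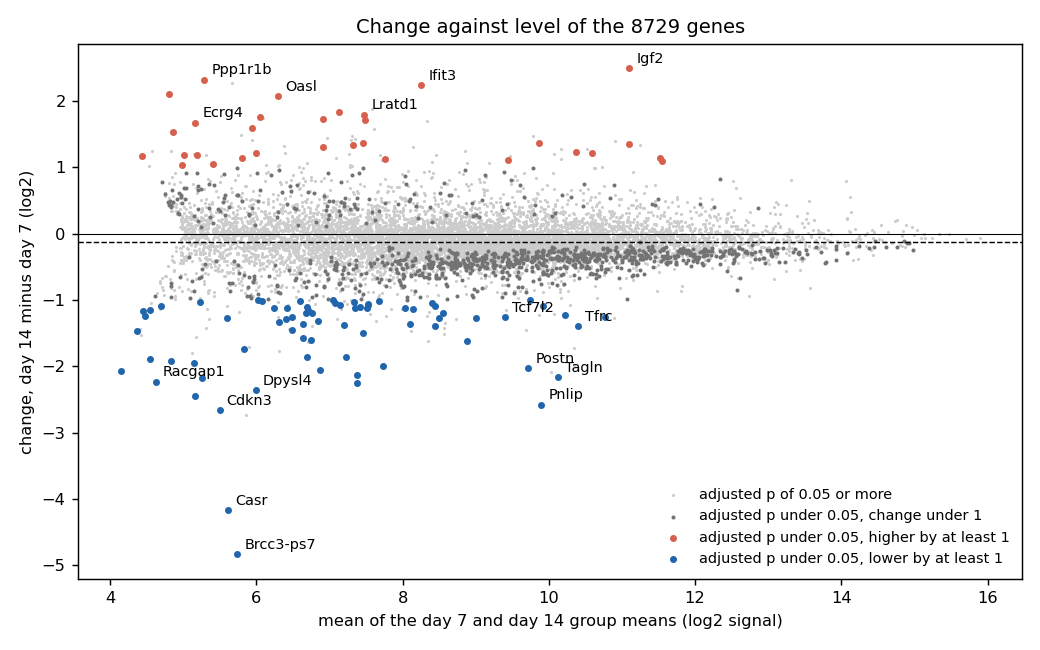
Change from day 7 to day 14 (log2) against the mean of the group means (log2 signal) for the 8729 genes; blue and red points are the 73 lower and 31 higher genes with an adjusted p under 0.05 and a change of at least 1. The cloud spans 0 with a small shift downwards, its upper quartile is 0.06, and the dashed line marks its median of -0.12.

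A group of 33 genes was called in each of the following fits: the one reported here, the fit of the 8 arrays alone, and those with quantile normalization, without dim probe sets, with the replicate number as a block, without the 3 arrays together, and without each array in turn. Of these 31 were lower and 2 higher, and 15 changed by at least 1. The lower ones of at least 1 were Casr, Dpysl4, Racgap1, Tagln, Trh, Tmem97, H19, Tfrc, Tcf7l2, Rras2, Rnaseh2c, Hmga1 and Rasgef1b, and the higher ones Ecrg4 and Lratd1. Among the smaller changes were Alox5ap, the partner of 5-lipoxygenase in leukotriene synthesis, at -0.96, Tnfrsf12a, the receptor of the cytokine TWEAK, at -0.95, the glycolytic enzyme Tpi1 at -0.66, and Tubb5, a tubulin, at -0.48. This group was drawn up after the values were seen.

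Cells that divide copy their DNA with the Mcm helicase and the clamp Pcna, enter mitosis under Cdk1 and its cyclins, and separate through a central spindle. Late genes of this program often carry CCAAT boxes, bound by NF-Y, and the element TTTGAA close to their starts. The 4 promoters below belong to the members of the DNA replication and mitosis list with the largest called changes among those with an entry. They are RefSeq sequence of build GRCr8, 150 bases long and ending at the base before the annotated start, with CCAAT and TTTGAA in capitals on either strand (ATTGG and TTCAAA where they lie on the other one).
Cdkn3, chr15:22502236-22502385, plus strand: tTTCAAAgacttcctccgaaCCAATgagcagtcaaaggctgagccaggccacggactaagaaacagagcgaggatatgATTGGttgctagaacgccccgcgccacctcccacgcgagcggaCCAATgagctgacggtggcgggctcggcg
Prc1, chr1:143659331-143659480, plus strand: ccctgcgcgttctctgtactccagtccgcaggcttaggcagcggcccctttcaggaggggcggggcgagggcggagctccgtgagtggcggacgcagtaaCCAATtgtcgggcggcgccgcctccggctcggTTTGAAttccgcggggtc
Mcm6, chr13:42404353-42404502, minus strand: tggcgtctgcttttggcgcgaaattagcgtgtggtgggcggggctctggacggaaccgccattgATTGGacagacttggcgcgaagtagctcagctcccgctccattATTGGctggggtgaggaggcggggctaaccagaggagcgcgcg
Mki67, chr1:199952594-199952743, minus strand: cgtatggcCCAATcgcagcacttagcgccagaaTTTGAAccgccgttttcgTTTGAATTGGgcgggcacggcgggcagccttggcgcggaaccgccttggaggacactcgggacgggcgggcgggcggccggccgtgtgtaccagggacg
In Mki67 a TTTGAA and an ATTGG overlap. The respiratory chain list had more called members, and these promoters are shown instead because the called changes of this list were larger, a choice made after the values were seen. Over the 250 bases before the start, 14 of the 16 members of the list with an entry held CCAAT (87.5%), against 34% of 33469 promoters, and 8 of 16 held TTTGAA (50%), against 16.2%. These letter matches are a description and were not tested.

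Of the 20 members of the DNA replication and mitosis list at 5 or more, 8 (40%) were called lower and 0 higher. Over all 8729 genes 9.78% were called lower and 2.02% higher. The median change was -1.11, and 19 of the 20 changes were below 0. Cdkn3, a phosphatase that acts on cyclin-dependent kinases, was at 7.13, 8.76, 4.50 and 6.91 on day 7 and 2.96, 2.79, 5.41 and 5.51 on day 14. Its day 7 values overlapped those of day 14 through day 7 replicate 3 alone, and the change was -2.66 (SE 0.71, adjusted p = 0.0124). Mki67, the proliferation marker Ki-67, read 9.69, 10.95, 8.26 and 9.67 on day 7 and 8.75, 7.64, 9.02 and 8.03 on day 14. Here day 7 replicate 3 lay among the day 14 arrays as well, with a change of -1.28 (SE 0.44, adjusted p = 0.0342). The other called members were Prc1, which bundles central spindle microtubules, at -2.18, the cyclin Ccna2 at -1.61, the helicase subunits Mcm6 at -1.36 and Mcm4 at -1.08, the kinase Cdk1 at -1.14 and the clamp Pcna at -0.29. Top2a, the topoisomerase of dividing cells, was at -1.14 (adjusted p = 0.102), and Aurkb, a kinase of the chromosomal passenger complex, was the member above 0, at 1.18 (adjusted p = 0.101).

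Further genes of cell division outside the list had changes of at least 1. Racgap1, a subunit of the centralspindlin complex, was at 5.84, 7.40, 4.28 and 5.43 on day 7 and 3.79, 3.01, 3.94 and 3.30 on day 14. No day 14 value reached the lowest on day 7, and the change was -2.23 (SE 0.42, adjusted p = 0.0113), or -2.27 without the 3 arrays. Ect2, the exchange factor that centralspindlin recruits for cytokinesis, changed by -2.07 (SE 0.52, adjusted p = 0.0116) with no overlap. Its day 7 arrays split, with 6.21 and 7.04 in replicates 1 and 2 and 3.76 and 3.75 in replicates 3 and 4. Shcbp1, a midbody protein, Spc24, a kinetochore subunit, and Plk4, the kinase of centriole duplication, were at -2.44, -1.90 and -1.24. They are named after their values were seen. In Plk4 day 7 replicate 2 stood alone at 6.55, with the others of its day from 4.47 to 4.78. In Spc24 the 4 day 14 values lay between 3.56 and 3.63, while those of day 7 spread from 3.48 to 7.34. Hmga1, a chromatin protein of growing cells, was at 9.10, 9.51, 8.29 and 8.83 on day 7 and 7.92, 7.88, 7.87 and 7.87 on day 14. Every day 14 array lay below every day 7 array (change -1.05, SE 0.18, adjusted p = 0.0113). Spag5, a spindle protein also called astrin, went the other way, from 6.15, 6.41, 7.07 and 6.88 on day 7 to 7.77, 9.12, 7.08 and 9.41 on day 14. These values did not overlap, with a change of 1.72 (SE 0.38, adjusted p = 0.0113).

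None of the 8 called list members kept its call with dim probe sets left out. With quantile normalization 0 of 20 were called, while the median stayed at -1.02. Leaving out the 3 arrays moved the median to -1.35 with 5 called lower, and leaving out 1 array at a time gave medians between -1.55 and -0.65. The macrophage marker Cd68 was at 12.10, 13.03, 10.31 and 11.37 on day 7 and 11.35, 10.42, 12.18 and 10.83 on day 14. It too was highest in day 7 replicate 2 and lowest in day 7 replicate 3, and its part in the division genes was not tested.

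**Figure D2:**
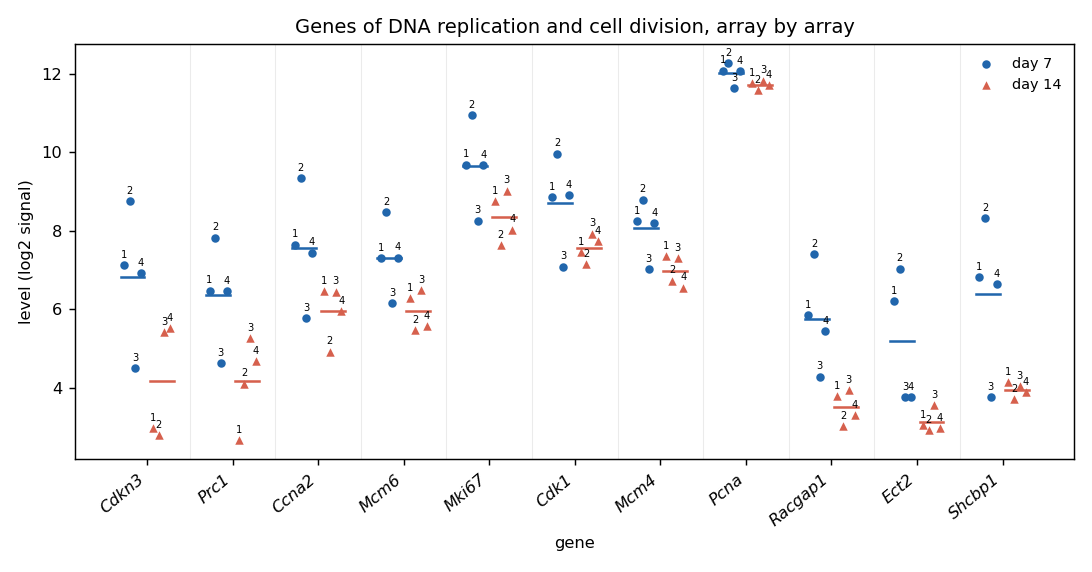
Level (log2 signal) of 11 genes of DNA replication and cell division in each of the 8 arrays; digits are replicate numbers and lines are group means. Day 7 replicate 3 lies near the day 14 arrays for every gene shown, and day 7 replicate 2 is the highest array for each.

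The largest changes of the comparison were losses of transcripts that had been high on day 7. Casr, the calcium-sensing receptor of the cell surface, was at 7.65, 7.18, 7.29 and 8.69 on day 7 and 2.61, 5.13, 3.10 and 3.29 on day 14. All day 7 arrays stood above all day 14 arrays, of which replicate 2 was the highest, and the change was -4.17 (SE 0.37, adjusted p = 1.22e-05). Its group means were 2.46 ± 0.05 in sham (SD, n = 4), 2.42 on day 1, 2.37 on day 3 and 2.40 on day 56, all below the day 14 mean of 3.53. Pnlip, named for pancreatic lipase, which splits triglycerides, read 11.22, 10.68, 11.16 and 11.69 on day 7 and 8.09, 9.11, 8.02 and 9.21 on day 14. The groups did not overlap (change -2.58, SE 0.54, adjusted p = 0.0113), and sham and day 56 were at 7.501 and 7.57.

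Dpysl4 belongs to the collapsin response mediator family of neurite growth. It was at 7.45, 6.35, 6.71 and 8.18 on day 7 and 4.52, 4.84, 4.96 and 4.91 on day 14. The day 14 arrays lay within 0.44 of each other and all below day 7, with a change of -2.36 (SE 0.34, adjusted p = 0.00375); the gene had climbed from 3.79 in sham over 4.89 and 6.11 on days 1 and 3. Trh, the precursor of thyrotropin-releasing hormone, was at 10.005, 9.69, 8.62 and 10.42 on day 7 and 8.48, 7.29, 8.47 and 8.05 on day 14. Its groups did not overlap either (change -1.61, SE 0.36, adjusted p = 0.0113), and its day 14 mean of 8.07 was still above the 4.94 of sham. Calcb, which encodes the beta form of calcitonin gene-related peptide, changed by -1.86 (SE 0.51, adjusted p = 0.013) without overlap. Calca, which encodes the alpha form, had the opposite sign, 0.94 (adjusted p = 0.438), and reached 2.86 without the 3 arrays (adjusted p = 0.0339). Left out there were its highest day 7 value, 10.22, and its lowest day 14 value, 6.10, both of replicate 3. The largest fall of all, -4.84 (SE 1.21, adjusted p = 0.0115), belonged to Brcc3-ps7, a symbol for a pseudogene whose probe set may share sequence with its parent gene, and Znrd2 changed by -1.95 (SE 0.46, adjusted p = 0.0113).

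**Figure D3:**
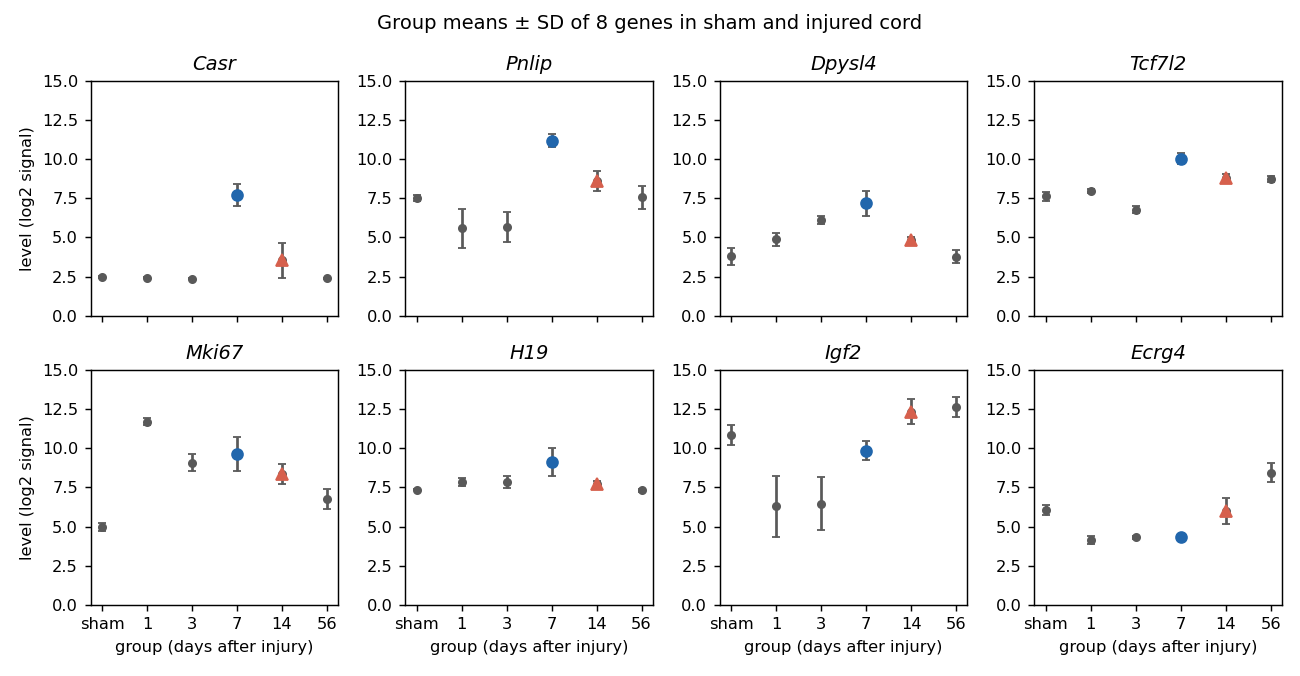
Group means ± SD (n = 4 arrays each, log2 signal) of 8 genes in sham and on days 1, 3, 7, 14 and 56, evenly spaced and not to time scale, with day 7 as a blue circle and day 14 as a red triangle. Casr stands at 7.70 on day 7 and at 3.53 or less in every other group, while Igf2 and Ecrg4 go up from day 7 to day 14.

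Oligodendrocyte precursors that stop dividing pass through a short premyelinating stage, marked by Enpp6, a choline phosphodiesterase, and by Tcf7l2, a factor of the Wnt pathway. Both were lower on day 14, and Tcf7l2 was named after its values were seen. Enpp6 was at 8.97, 8.31, 9.50 and 9.76 on day 7 and 7.53, 8.01, 7.63 and 8.26 on day 14. The groups did not overlap, with a change of -1.28 (SE 0.33, adjusted p = 0.0118). Tcf7l2 read 10.20, 9.62, 9.90 and 10.41 on day 7 and 8.49, 9.18, 8.65 and 8.77 on day 14. The lowest day 7 array lay 0.45 above the highest on day 14, and the change was -1.26 (SE 0.17, adjusted p = 0.00319), against a sham mean of 7.63; a second probe set of the gene changed by -1.70. Nfasc, the adhesion protein neurofascin of nodes and paranodes, changed by -1.23 (SE 0.31, adjusted p = 0.0117) and the small GTPase Rras2 by -1.26 (SE 0.25, adjusted p = 0.0113), both without overlap. Of 3 further Nfasc probe sets 1 changed by -1.47 and the others by -0.11 and -0.05.

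In the oligodendrocytes and myelin list 2 of 17 members (11.8%) were called, both lower, the same share as the 11.8% over all 8729 genes, and the median of -0.12 was that of all genes as well. The 2 were Enpp6 and Sirt2, a deacetylase of myelin, at -0.56. Of the 17 changes 7 were above 0 and 10 below. Opalin, Mal and Mog changed by 0.70, 0.49 and 0.12 and were not called. Mbp changed by -0.0012 (SE 0.06, adjusted p = 0.993) and Mag by -0.19 (SE 0.16, adjusted p = 0.433). The precursor list had 1 of 10 called (10%, near the 11.8% of all genes), the matrix glycoprotein Tnr at -0.81 (SE 0.18, adjusted p = 0.0113).

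Macrophages and microglia take up debris, present antigen and respond to complement fragments. Single myeloid genes were lower on day 14, while their lists as a whole had few calls. C5ar1, the receptor for complement C5a, was at 8.53, 10.06, 5.55 and 7.45 on day 7 and 6.13, 4.90, 6.97 and 5.38 on day 14. The groups overlapped through day 7 replicate 3 and day 14 replicates 1 and 3, and the change was -2.05 (SE 0.65, adjusted p = 0.022). Stab1, a scavenger receptor, and Lst1, a leukocyte transcript, are named after their values were seen, with changes of -2.25 (SE 0.62, adjusted p = 0.0133) and -2.14 (SE 0.61, adjusted p = 0.0143). Adam8, a leukocyte metalloprotease, changed by -1.93 (SE 0.69, adjusted p = 0.0415); its day 7 arrays split, with 6.93 and 8.37 in replicates 1 and 2 and 3.88 and 3.995 in replicates 3 and 4.

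Of the macrophages and activated microglia list 0 of 19 members were called in limma, although 17 of 19 were below 0 and the median was -0.47. The scavenger marker Cd68 changed by -0.51 (SE 0.64, adjusted p = 0.619), the mannose receptor Mrc1 by -0.80 (SE 0.58, adjusted p = 0.351) and the co-receptor Cd14 by -0.62 (SE 0.46, adjusted p = 0.355). The 7 homeostatic microglia genes had 0 calls and a median of -0.32, with P2ry12 at -0.32 and Csf1r at -0.37. MHC class II presentation had the second lowest median of the lists with 5 or more members, -0.77, again with 0 of 9 called; RT1-Da was at -0.97 (SE 0.62, adjusted p = 0.276) and RT1-Bb at -1.18 (SE 0.65, adjusted p = 0.196). Across single left-out arrays the MHC class II median ran from -0.90 to -0.55.

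Complement genes split. Of 11 members C5ar1 was called lower and C1r higher (18.2%, against 11.8% over all 8729 genes), and the list's median was 0.03. C1r, a protease of the classical pathway, was at 10.07, 10.13, 9.15 and 9.64 on day 7 and 10.88, 10.57, 11.97 and 10.51 on day 14. No value overlapped (change 1.23, SE 0.40, adjusted p = 0.0245), yet the change was 0.80 (adjusted p = 0.24) without the 3 arrays. The subunit C1qb changed by -0.55 (SE 0.21, adjusted p = 0.0508).

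Fibroblast-like cells lay down the collagenous core of the lesion, and perivascular and meningeal cells supply many of them. In the list of collagens and matrix of the fibrotic scar 1 of 25 members was called, Postn, with a median of -0.19. That is 4%, against 11.8% over all 8729 genes. Postn, the matricellular protein periostin, was at 11.76, 12.74, 8.75 and 9.68 on day 7 and 8.92, 7.19, 10.53 and 8.19 on day 14. Day 7 replicate 3 and day 14 replicate 3 crossed between the groups, and the change was -2.03 (SE 0.71, adjusted p = 0.0373), or -2.62 without the 3 arrays. Cthrc1, a secreted protein of remodelling tissue named after its values were seen, changed by -1.99 (SE 0.72, adjusted p = 0.0436). The collagen Col1a1 was at -0.45 (SE 0.75, adjusted p = 0.719) and the glycoprotein Tnc at -1.08 (SE 0.54, adjusted p = 0.151). The list's median ran from -0.63 to 0.10 with 1 array left out at a time.

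Among genes of contractile cells, Tagln and Myh11 moved in opposite directions. Tagln, the actin-binding protein transgelin, read 10.85, 10.10, 11.72 and 12.13 on day 7 and 9.61, 9.08, 9.11 and 8.36 on day 14. The highest day 14 array was 0.49 below the lowest on day 7, with a change of -2.16 (SE 0.39, adjusted p = 0.0113). Myh11, the myosin heavy chain of smooth muscle, read 4.70, 4.93, 5.98 and 4.99 on day 7 and 6.79, 7.06, 6.37 and 6.73 on day 14. Here every day 14 array was above every day 7 array, with a change of 1.59 (SE 0.43, adjusted p = 0.0128). They were the 2 called members of the 9 in the pericyte and smooth muscle list (22.2%, against 11.8% over all 8729 genes). Tgfb3 and Tgfb2, of the transforming growth factors, also went apart. Tgfb3 changed by -1.57 (SE 0.50, adjusted p = 0.0239) and Tgfb2 by 0.60 (SE 0.20, adjusted p = 0.0309). In the TGF-beta and BMP list 1 of 18 members was called higher and 1 lower. That is 11.1%, near the 11.8% over all 8729 genes, and the list's median was 0.08.

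Igf2, an insulin-like growth factor abundant in meninges, and H19, a noncoding RNA of the same imprinted locus, also went apart. Igf2 was at 10.42, 10.33, 9.27 and 9.41 on day 7 and 11.79, 12.09, 13.50 and 12.002 on day 14. The lowest day 14 array exceeded the highest day 7 array by 1.37, and the change was 2.49 (SE 0.82, adjusted p = 0.0277). Its mean had been 10.86 in sham and 6.29 on day 1, and was 12.62 on day 56. H19 was at 10.03, 8.86, 8.001 and 9.66 on day 7 and 7.63, 7.54, 7.90 and 7.90 on day 14. Day 14 lay lower with no overlap (change -1.40, SE 0.29, adjusted p = 0.0113) and with an SD of 0.19 against 0.90 on day 7. Igf2 was the 1 called gene of 17 in the meninges and fibroblasts list (5.88%, against 11.8% over all 8729 genes). The list's median was 0.50 and fell to 0.01 at the lowest with 1 array left out. Igf2 lost its call without the 3 arrays, where its change was 2.04 (adjusted p = 0.198).

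The called genes of energy metabolism changed by small amounts. Over all 8729 genes 9.78% were called lower, against a median change of -0.12. Glycolysis and lactate transport had 8 of 21 members called (38.1%), all lower, and a median of -0.29. Ldha, which makes lactate, was at 11.69, 12.52, 10.63 and 11.40 on day 7 and 10.48, 10.34, 10.88 and 10.58 on day 14. Only day 7 replicate 3 lay among the day 14 values (change -0.99, SE 0.26, adjusted p = 0.0121). Tpi1, triose phosphate isomerase, changed by -0.66 (SE 0.10, adjusted p = 0.00742) and Pfkl, a liver-type phosphofructokinase, by -0.79 (SE 0.25, adjusted p = 0.024), both without overlap, and Gapdh by -0.22. The mitochondrial respiratory chain had the most calls of any list, 12 of 22 (54.5%), all lower, with all 22 members below 0. Its largest change was -0.42 (SE 0.10, adjusted p = 0.0113) for Uqcrfs1, the iron-sulfur protein of complex III, and its median was -0.26. Uqcrc1, a core subunit of the same complex, changed by -0.40 and Cox5b, of cytochrome c oxidase, by -0.33. Ribosomal proteins had 6 of 15 called (40%), all lower, and a median of -0.20.

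The medians of these lists moved with the scaling. With quantile normalization the median of glycolysis was -0.16, that of the respiratory chain -0.14 and that of ribosomal proteins -0.10. In that fit 2, 0 and 1 of their members were called. With the arrays centred on their medians they were -0.38, -0.35 and -0.29. With dim probe sets left out 2, 0 and 1 of their members were called. Over the promoters of the 20 respiratory chain members with an entry, CCAAT occurred in 4 (20%) and TATAAA in 1 (5%), against 34% and 12.9% of all promoters.

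Single genes of cholesterol synthesis and iron uptake were lower as well. Of the 17 cholesterol genes 3 (17.6%) were called, all lower, against 9.78% lower over all 8729 genes. The list had 15 members below 0 and a median of -0.46. Called were Fdps, which makes farnesyl diphosphate, at -0.77 (SE 0.18, adjusted p = 0.0113), Ebp, a sterol isomerase, at -0.61, and the mevalonate kinase Mvk at -0.60. Sqle, squalene epoxidase, was at -0.92 (SE 0.38, adjusted p = 0.0807) with no overlap. Tmem97, a sterol-responsive membrane protein known as the sigma-2 receptor, was at 6.94, 7.88, 6.69 and 7.34 on day 7 and 5.67, 6.02, 5.66 and 5.71 on day 14. All of day 14 lay below all of day 7, with a change of -1.45 (SE 0.18, adjusted p = 0.00142). Tfrc, the transferrin receptor that imports iron, was at 11.14, 11.88, 10.55 and 10.82 on day 7 and 9.87, 9.87, 9.29 and 9.77 on day 14. The groups stood 0.68 apart at their nearest (change -1.40, SE 0.23, adjusted p = 0.0113), and the day 14 mean of 9.70 was below the 10.93 of sham. A second Tfrc probe set changed by -1.74. Cp, the copper-binding ferroxidase ceruloplasmin, was higher by 0.82 (SE 0.25, adjusted p = 0.0201), and Slc7a11, the cystine importer, by 0.93 (SE 0.28, adjusted p = 0.0176), neither with overlap. Srxn1, which repairs oxidised peroxiredoxins, changed by -0.80 in the list of antioxidant genes that holds Slc7a11. Scd, a fatty acid desaturase, was at -1.03 (SE 0.59, adjusted p = 0.217). Dctpp1, which clears modified nucleotides, changed by -1.32 (SE 0.32, adjusted p = 0.0113).

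Interferons induce proteins that block viral replication, and many of their target genes also respond to tissue damage. The list of interferon-stimulated genes had the highest median, 1.09 over 18 members. Of these 4 (22.2%) were called higher, against 2.02% higher over all 8729 genes, and 0 lower. Ifit3, which binds viral RNA together with its relatives, was at 7.60, 7.39, 5.10 and 8.45 on day 7 and 8.87, 8.84, 11.84 and 7.92 on day 14. Day 14 replicate 3 was highest and day 7 replicate 3 lowest, the groups overlapped, and the change was 2.23 (SE 0.75, adjusted p = 0.0297). Oasl, a relative of the oligoadenylate synthetases, was at 5.37, 5.28, 4.80 and 5.61 on day 7 and 6.95, 6.62, 9.48 and 6.28 on day 14. It was the called member without overlap (change 2.07, SE 0.46, adjusted p = 0.0113). Usp18, which removes the ubiquitin-like Isg15, changed by 1.37 (SE 0.50, adjusted p = 0.0448) and the GTPase Mx2 by 1.21 (SE 0.43, adjusted p = 0.041); a second Mx2 probe set had the opposite sign, -0.77 (adjusted p = 0.716). Isg15 itself was at 1.47 (SE 0.75, adjusted p = 0.163) and the chemokine Cxcl10 at 1.44 (SE 1.15, adjusted p = 0.404).

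Without day 7 replicates 2 and 3 and day 14 replicate 3 the interferon median was 0.17, with 0 of 18 called at an adjusted p under 0.05. Ifit3 then changed by 0.52, Isg15 by 0.24, Cxcl10 by -1.07 and Oasl by 1.13 (adjusted p = 0.0561). Mean levels over the 18 genes were 9.10, 8.99, 7.72 and 9.54 on day 7 and 9.76, 9.52, 11.07 and 8.92 on day 14. Day 14 replicate 4 thus lay below 3 of the day 7 arrays. Day 7 replicate 3 was the lowest of its day and day 14 replicate 3 the highest of its day. Leaving both out lowers these changes by itself, so no absence of a rise is read from the values without the 3 arrays. With 1 array left out at a time the median ran from 0.52 to 1.39. Ifi27l2b, another interferon-induced gene, was at 11.24, 11.16, 10.22 and 11.20 on day 7 and 12.71, 11.66, 12.27 and 11.74 on day 14. Its groups did not overlap (change 1.14, SE 0.26, adjusted p = 0.0113). RT1-S3, a nonclassical class I gene, changed by 1.35 (SE 0.45, adjusted p = 0.0294), and 3 further probe sets of it changed by 1.52, 2.26 and 1.87; such class I genes are near copies of each other and their signals are uncertain. Cx3cl1, the neuronal chemokine fractalkine, was higher by 0.74 (SE 0.23, adjusted p = 0.0224) with no overlap. The 13 chemokines had 2 called (15.4%, against 11.8% over all 8729 genes), both higher. Their median of 0.67 became -0.16 without the 3 arrays. On average these genes too were lowest of day 7 in its replicate 3 and highest of day 14 in its replicate 3. Cxcl13, which attracts B cells, was at 3.15, 3.20, 3.45 and 5.24 on day 7 and 5.83, 6.58, 3.40 and 7.64 on day 14. Day 14 replicate 3 stayed within the day 7 range (change 2.10, SE 0.76, adjusted p = 0.0433).

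**Figure D4:**
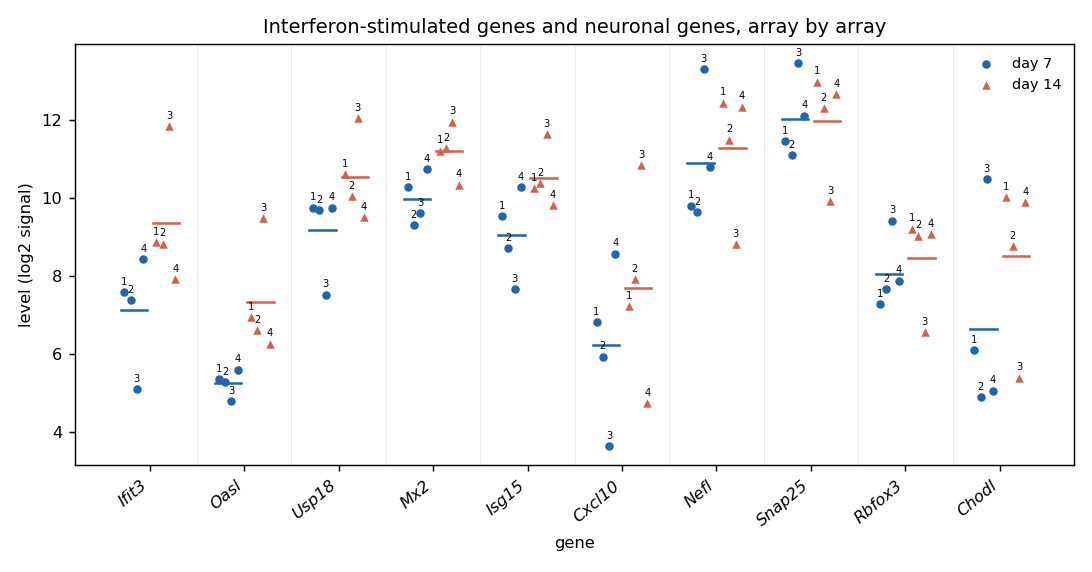
Level (log2 signal) of 6 interferon-stimulated genes and 4 neuronal genes in each of the 8 arrays; digits are replicate numbers and lines are group means. Day 14 replicate 3 is the highest day 14 array for the interferon genes and the lowest for the neuronal ones, and day 7 replicate 3 is the highest day 7 array for the neuronal genes.

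The general neuron list had 0 of 17 members called and a median of -0.04, the neurofilament list 0 of 16 and 0.07, and the list of voltage-gated channels 0 of 10 and 0.39. Nefl, the light neurofilament, was at 9.81, 9.65, 13.31 and 10.79 on day 7 and 12.44, 11.50, 8.83 and 12.34 on day 14. Its highest value came from day 7 and its lowest from day 14 (change 0.39, SE 0.81, adjusted p = 0.783). Snap25, of synaptic vesicle release, was at -0.06, and the nuclear protein Rbfox3 at 0.41. General neuron genes averaged 10.50 in day 7 replicate 3, the highest of its day, and 7.94 in day 14 replicate 3, the lowest of its day. Leaving both out raises these changes by itself, so no rise is read from the values that follow. Day 7 replicate 2, at 8.75, was the lowest of its day, and leaving it out works the other way. Without the 3 arrays these medians were 0.72, 0.77 and 1.09, and Nefl changed by 1.80 (adjusted p = 0.0738), Rbfox3 by 1.52 (adjusted p = 0.0654) and Chodl, of fast motor neurons, by 3.97 (adjusted p = 0.0201). With all arrays Chodl was at 1.88 (SE 1.07, adjusted p = 0.218).

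Of the other neuronal lists, 1 of 7 inhibitory genes (Glra1), 1 of 5 motor and cholinergic genes (Gfra1) and 1 of 9 spinal neuropeptides (Calcb, lower) were called. These shares of 14.3%, 20% and 11.1% rest on 1 gene each, beside 11.8% over all 8729 genes. Glra1, the alpha1 subunit of the glycine receptor, was at 5.18, 5.57, 3.99 and 5.95 on day 7 and 7.77, 6.72, 6.63 and 6.60 on day 14. Day 14 was higher without overlap (change 1.75, SE 0.50, adjusted p = 0.0144), and sham was at 8.04. Ppp1r1b, the signalling inhibitor DARPP-32 and named after its values were seen, was at 3.51, 3.36, 5.63 and 4.002 on day 7 and 5.51, 8.06, 3.46 and 8.74 on day 14. Its rise of 2.32 (SE 0.78, adjusted p = 0.0313) came from day 14 replicates 1, 2 and 4, and replicate 3 stayed with day 7.

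Further higher genes without overlap were of several kinds. Ecrg4, a secreted peptide precursor of choroid plexus and ependyma, was at 4.28, 4.13, 4.47 and 4.42 on day 7 and 6.21, 6.65, 4.81 and 6.31 on day 14. The day 7 arrays lay within 0.34 of each other and below every day 14 array, with a change of 1.67 (SE 0.31, adjusted p = 0.0113), and the means were 6.06 in sham and 8.45 on day 56. Lratd1 was at 6.54, 5.98, 7.11 and 6.70 on day 7 and 7.95, 8.75, 8.09 and 8.69 on day 14. All day 14 arrays were higher (change 1.79, SE 0.29, adjusted p = 0.0113), near the sham mean of 8.21. Cyp26b1, which degrades retinoic acid, changed by 1.83 (SE 0.60, adjusted p = 0.0261) and was at 10.42 on day 56. The carnitine transporter Slc22a5 changed by 1.18 (SE 0.37, adjusted p = 0.0211), the endothelial receptor Gpr182 by 1.116 (SE 0.36, adjusted p = 0.0245) and Cfap144, of cilia, by 1.17 (SE 0.26, adjusted p = 0.0113). Ecrg4 and Cfap144 reached a mean of 5 on day 14 only. Foxj1, the factor that drives motile cilia, was higher by 0.62 (SE 0.22, adjusted p = 0.038) with no overlap. Of the genes changed by at least 1, 13 of the 31 higher and 27 of the 73 lower had groups that did not overlap. Over all 8729 genes this held for 300 higher (3.44%) and 634 lower (7.26%). The 31 and 73 were picked by their change in these same arrays, which raises that share beforehand. A lack of overlap is thus a description and not a second test.

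The 12 homeostatic astrocyte genes had 0 calls and a median of 0.39, with Aqp4, the water channel, at 0.55 (SE 0.35, adjusted p = 0.277), and Gfap, the intermediate filament of reactive astrocytes, was at 0.03 (SE 0.14, adjusted p = 0.917). Of the 12 reactive genes 2 were called (16.7%, against 11.8% over all 8729 genes), Cp higher and Nes, the filament nestin of immature and reactive cells, lower at -0.90 (SE 0.26, adjusted p = 0.0156). Sema6a, a membrane-bound axon guidance cue, changed by -0.82 (SE 0.19, adjusted p = 0.0113) without overlap, 1 call of 17 in its list (5.88%). Gfra1, a receptor for glial-derived neurotrophic factor, was higher by 0.34 (SE 0.12, adjusted p = 0.0359). Skeletal muscle RNA varied between arrays: Acta1, muscle actin, was at 8.38, 3.49, 8.73 and 3.48 on day 7 and 2.92, 2.81, 2.89 and 9.79 on day 14. It was high in day 7 replicates 1 and 3 and day 14 replicate 4 and near background in the others, and its part in other results was not tested. Of the 48 lists, 41 had 5 or more members at or above 5, and 15 of these 41 had 0 members called. In 17 of the 41 the called share was above the 11.8% of all 8729 genes.

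**Figure D5:**
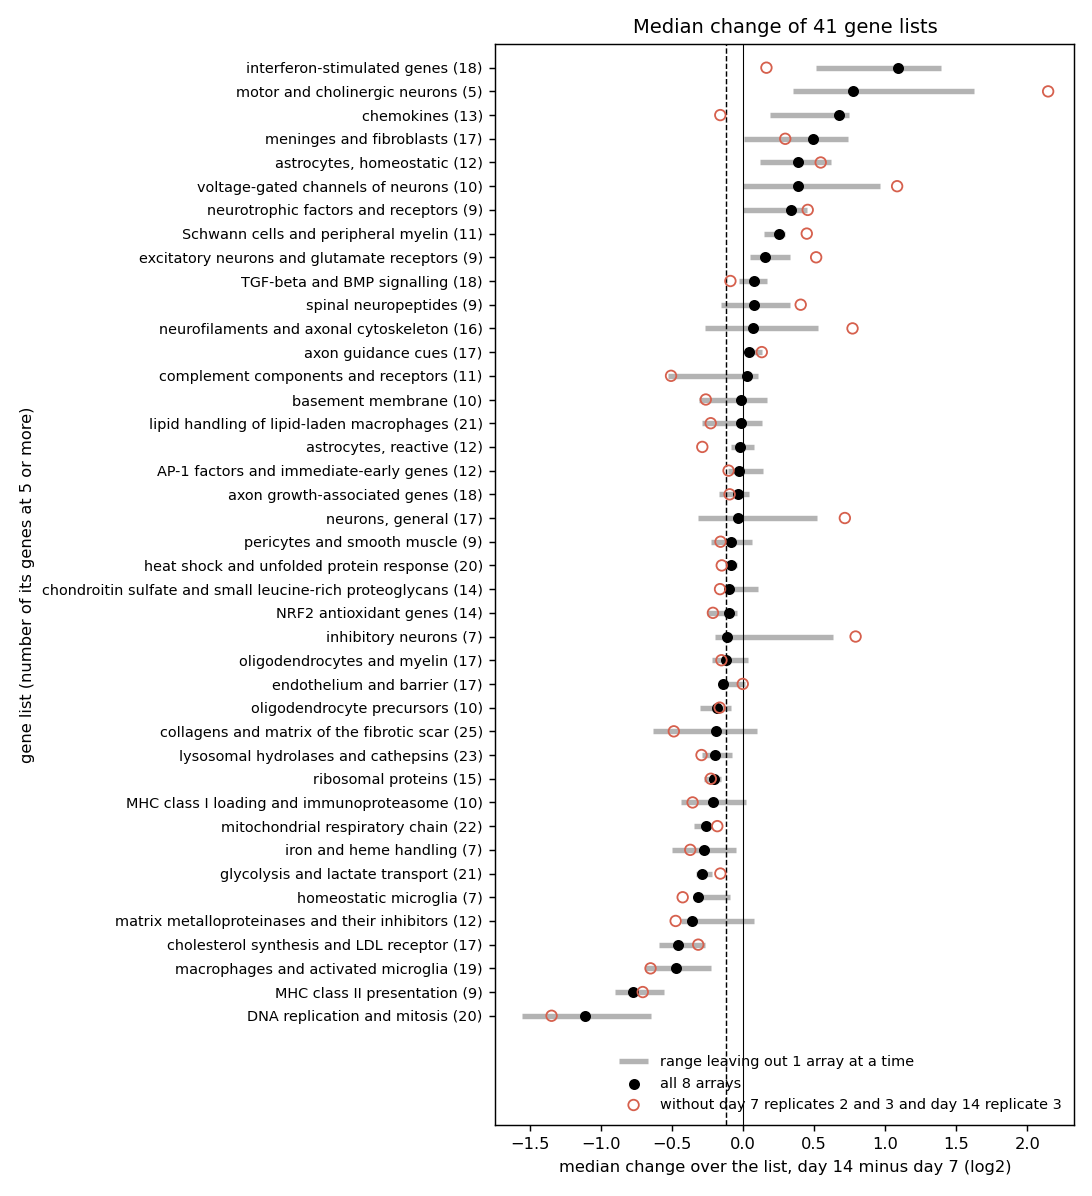
Median change (log2) of 41 gene lists over all 8 arrays (black), without day 7 replicates 2 and 3 and day 14 replicate 3 (open red), and the range with 1 array left out at a time (grey bar); the dashed line is the median of all 8729 genes, -0.12. DNA replication and mitosis lies lowest at -1.11 and interferon-stimulated genes highest at 1.09. The latter lie at 0.17 without the 3 arrays, which were picked from these same values.

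Set beside the other groups, most genes lower by at least 1 had been above sham on day 7. That held for 70 of the 73, and for 67 of them the day 14 mean was nearer to sham than the day 7 mean. The day 1 mean exceeded that of day 7 in 55, and in 56 the day 56 mean lay below that of day 14. Of the 31 higher genes 20 had been below sham on day 7 and 11 above it; the day 14 mean was nearer to sham in 15, and the day 56 mean was above day 14 in 16. Genes picked as lower lean towards a high day 7 and a low day 14 beforehand, and the higher ones the other way. These counts share the day 7 and day 14 arrays with the comparison and are a description. They were not set beside the same counts over all 8729 genes. Spread differed too: the SD was larger on day 7 in 65.9% of the 8729 genes, with medians of 0.27 on day 7 and 0.20 on day 14, and in 63 of the 73 lower genes.

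Further probe sets at 5 or more existed for 9 of these 104 genes, 13 probe sets in all. Of these 12 changed in the direction of the one used, and 8 of the 12 were called. At the entry level of 5, the 73 genes whose higher mean lay within 0.1 above it had a median change of 0.06 and 15 calls, and the 75 genes within 0.1 below had a median of 0.03 and 6 calls. A gene that reached 5 on 1 day only could enter through that day, which held for 19 of the 73 lower and 9 of the 31 higher genes. Casr, Brcc3-ps7, Dpysl4, Cdkn3, Racgap1, Ect2, Adam8, Spc24 and Plk4 were among those that entered through day 7 alone. Ecrg4, Cfap144, Cxcl13 and Ppp1r1b were among those that entered through day 14 alone. For each of these the day of entry was the day on which it was high.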

How the data were processed

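RNA of the injured segment was hybridised to 1 array per rat, and 24 arrays in 6 groups of 4 were used. The authors summarised the probes into deposited log2 values with GCRMA, which corrects background (the submitters' processing notes also name affy 1.12.2), and the methods describe separate pre-processing of the animals of each day. Arrays have no read depth, so the number of rats limits the precision. Nothing in the labels says more of the replicates than that they are separate samples, and the methods give 1 rat per array.

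The 31099 probe sets were fitted over the 6 groups with limma (3.58.1, R 4.3.3), which moderates each variance, and day 14 minus day 7 was tested 2-sided. Benjamini-Hochberg adjustment covered the 20832 probe sets that carry 1 symbol, while 436 had several and 9831 had none and were left unnamed. A gene was read from its probe set with the highest mean over the 24 arrays. A call is an adjusted p under 0.05. Every adjusted p-value printed comes from limma, while the closing section also counts calls of an ordinary t-test. The fit was also run on simulated data as a check of its code. Those values were independent, with no shift common to an array, so that run does not bear on the shifts described above. Other settings are given in the closing section.

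The genes, lists and tests were chosen with earlier results of these data known. Named genes are the up to 15 higher and 15 lower genes with the largest changes of at least 1 and no overlap, leading members of each list, cell type markers, and Casr, Dpysl4, Postn and Tnc. Alox5ap, Aurkb, Cdk1, Cox5b, Cthrc1, Cx3cl1, Ebp, Gapdh, Hmga1, Lst1, Mcm4, Mcm6, Mvk, Mx2, Nfasc, Pcna, Plk4, Ppp1r1b, Rasgef1b, Rnaseh2c, Rras2, Shcbp1, Spc24, Stab1, Tcf7l2, Tnfrsf12a, Tubb5 and Usp18 were named after their values were seen. Replicate numbers do not pair the rats of different days. Promoters came from a RefSeq table of build GRCr8, not the array's own.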

Additional observations from a re-analysis of the deposited data

Results flagged for a closer look

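For the 108 genes named in the report, the 4 arrays of a day were searched for a single array far from the others, by the gap to its neighbour over the range of the group, against Dixon's 95% critical value. Chance alone gives about 1 in 20, and 15 of 216 groups passed.

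On day 7, replicate 1 was low for Tgfb2 at 7.37, with the others from 8.02 to 8.03 (ratio 0.986). Replicate 2 was high for Plk4 at 6.55, with the others from 4.47 to 4.78 (0.852). Replicate 3 was low for the interferon-induced Usp18 at 7.53, against 9.70 to 9.76 (0.973), and for Ifi27l2b at 10.22, against 11.16 to 11.24 (0.912). Replicate 4 was high for Cxcl13 at 5.24, against 3.15 to 3.45 (0.857).

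On day 14, replicate 3 stood alone in several genes. It was high for Rras2 at 10.88, against 9.84 to 10.01 (0.832), and for Col1a1 at 13.77, against 11.73 to 12.03 (0.852). It was low for Tfrc at 9.29, against 9.77 to 9.87 (0.833), for Gapdh at 14.12, against 14.31 to 14.33 (0.895), for Rbfox3 at 6.56, against 9.04 to 9.22 (0.933), and for Sema6a at 8.39, against 8.77 to 8.80 (0.910). Replicate 1 was low for Scd at 5.67, against 5.81 to 5.83 (0.872), and high for Glra1 at 7.77, against 6.60 to 6.72 (0.897). Replicate 2 was high for Tmem97 at 6.02, against 5.66 to 5.71 (0.876). Replicate 4 was high for muscle actin Acta1 at 9.79, against 2.81 to 2.92 (0.985).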

How the results depend on the processing

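The 1030 called genes were 743 with the 8 arrays alone, 94 with quantile normalization and 78 without dim probe sets. They were 170 without day 7 replicates 2 and 3 and day 14 replicate 3 (below, the 3 arrays). By an ordinary t-test of the same fit, without moderated variances, they were 1847 at an unadjusted p under 0.05 and 930 after Benjamini-Hochberg. The 31 genes higher by at least 1 were 11, 12, 8 and 17 in the first 4 of these and 9 with median centring, and the 73 lower were 26, 19 and 19 in the first 3. The share of calls that were higher, 17.1%, was 23.96%, 44.7%, 20.5% and 13.5% in the same 4, 4.31% with centring, 21.9% with a gene's probe sets averaged, 25.2% and 13.4% with an entry level of 4 and 6, and 14.7% with the entry level required on both days. 2 combinations were added after seeing the data. Dim probe sets left out with quantile normalization gave 23 calls, 7 higher and 10 lower by at least 1. Dim probe sets left out with the 3 arrays gave 117 calls, 17 of them higher by at least 1.

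Leaving out 1 array at a time gave 596 to 1708 calls, 23 to 56 higher and 45 to 195 lower by at least 1, and 13.3% to 21.1% higher. The highest counts came without day 7 replicate 3 (1708 calls). Without day 7 replicates 1 and 2 or day 14 replicates 1 and 2 the calls were 620, 613, 621 and 596. Same-numbered arrays of days 7 and 14 correlated in their deviations at -0.28, -0.53, -0.74 and 0.27, so the numbers are names. With the replicate number as a block 967 genes were called, 25 higher and 58 lower by at least 1. No day 7 array correlated best with the day 14 array of its own number.

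Of the 82 called genes named in the report, 19 kept their call under each setting tried, the added combinations aside, and 0 turned direction in any. With quantile normalization 29 of the 82 were called, without dim probe sets 30, without the 3 arrays 37, and without any 1 array 59 to 74. Of the 26 named genes that were not called, 7 passed under at least 1 of them. The cause of these differences was not tested.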
